A study of Mus musculus with 63 samples.

Results

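The pituitary response to chronic stress was compared between 12 and 8 weeks of exposure in 6-month mice. The comparison rests on 16 of the series' 63 RNA-seq libraries, the pituitaries whose sample titles give an age of 6 months. All came from C57BL/6 mice with no allele or transgene named. Chronic unpredictable mild stress (CUMS) is a rodent schedule of varied mild stressors. The 4 groups, with 4 libraries each, are 8-week controls (6M-8W-Pit-Ctrl), mice with 8 weeks of CUMS (6M-8W-Pit-CUMS), 12-week controls (6M-12W-Pit-Ctrl) and mice with 12 weeks of CUMS (6M-12W-Pit-CUMS). They are called 8-week control, 8-week stressed, 12-week control and 12-week stressed here. The series' title asks how young and adult females differ along the hypothalamus-pituitary-ovary axis. Its design text can be read as pairing each age with 1 duration, while the titles hold both durations at both ages, and the titles were followed. The labels do not say if an age is that before or after the stress period, and give no estrous stage, collection hour, control handling, pooling of animals or sequencing run. Duration and a batch that follows it cannot be told apart. In the main fit, p-values measure the spread within groups of all 32 pituitary libraries in the series, those of the younger mice included.

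The quantity reported is the duration difference: the log2 fold of stressed over control at 12 weeks minus the same log2 fold at 8 weeks. A negative value means a lower stress effect at 12 than at 8 weeks, so a gene can have one because its rise at 8 weeks had no counterpart at 12 weeks. Corticotropes of the anterior pituitary cleave adrenocorticotropin from the product of Pomc when hypothalamic CRH and vasopressin reach them, and glucocorticoids from the adrenal act back on these cells through the glucocorticoid receptor. Prolactin, growth hormone, the gonadotropins and thyrotropin come from other endocrine cells of the gland. These cells release hormone from granules when calcium enters, and most tissues, the pituitary included, run a molecular clock in which the repressor REV-ERB alpha, product of Nr1d1, is one arm.

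The libraries held 13514270 to 22190587 counts. Pituitary identity was plain, with Prl at 130965 ± 16717 CPM (counts scaled to a common library total, mean ± SD, n = 4) in 8-week controls, and no pair of libraries in a group held the same counts. The first principal component (27.3% of the variance) separated the durations. Mitochondrially encoded genes took 2.81 to 3.59% of counts at 8 weeks and 4.19 to 10.02% at 12 weeks. Several libraries stood apart. The 12-week controls 3 and 4 lay farthest out on that component, and control 3 had the highest mitochondrial share. The 8-week stressed libraries 3 and 4 had the summed CPM of 12 heat shock genes at 4749 and 5572, against 2812 to 3878 in the other 14. In the 8-week control 3, gland epithelium markers summed to 213.7 CPM against 9.28 to 25.9 elsewhere. Ovary markers summed to 9.18 to 11.2 CPM in 8-week stressed libraries and 2.71 to 5.73 in the rest, with the steroid enzyme gene Hsd3b1 at 0 in all 12 other libraries, and with 32 genes at least 100 times more abundant in ovary left out the main count below became 64. Results are therefore also given without the 12-week controls 3 and 4 and without the 8-week stressed libraries 3 and 4, the second choice made after seeing the data.

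Genes called for stress at 8 weeks and not at 12 weeks made up most of those past the test for the duration difference. The test passed 61 of 17001 genes (0.359% of those tested; edgeR's quasi-likelihood test, Benjamini-Hochberg adjusted p under 0.05). The stress effect was lower at 12 weeks for 41 genes (0.241%) and higher for 20 (0.118%). Of the 41, 39 were called higher in stressed than control pituitaries at 8 weeks and 0 were called at 12 weeks. Of the 20, 15 were called lower at 8 weeks, while 2, Atp2a1 and Slc6a15, were called higher at 12 weeks. For comparison, 4.70% of genes tested were called for stress at 8 weeks (391 higher, 2.30%, and 408 lower, 2.40%), and 0.276% at 12 weeks (17 higher, 0.1%, and 30 lower, 0.176%). The stress effects that enter the difference are part of it, so these counts describe the 61 genes and are no separate test.

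The size of the stress effect was smaller at 12 than at 8 weeks for 53 of the 61 genes. The 41 lower genes had 8-week log2 folds of 0.22 to 2.59 (median 0.93). Their 12-week log2 folds were -4.13 to 0.345 (median -0.15), with 33 below 0. The 20 higher genes had medians of -0.81 at 8 weeks and 0.30 at 12 weeks, with 17 above 0 at 12 weeks. At 8 weeks every stressed library was above every control in 38 of the 41 genes (7.44% of all genes tested), and below every control in 15 of the 20 (6.24% of all). At 12 weeks every stressed library was below every control in 5 of the 41 (2.32% of all) and above every control in 6 of the 20 (2.41% of all). Of the 41, Doc2b was the 1 with every stressed library above every control at 12 weeks too. The 8-week and 12-week values enter the duration difference that chose these genes, so nothing is read from these counts. Over all genes tested the median duration difference was -0.0033.

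**Figure D1:**
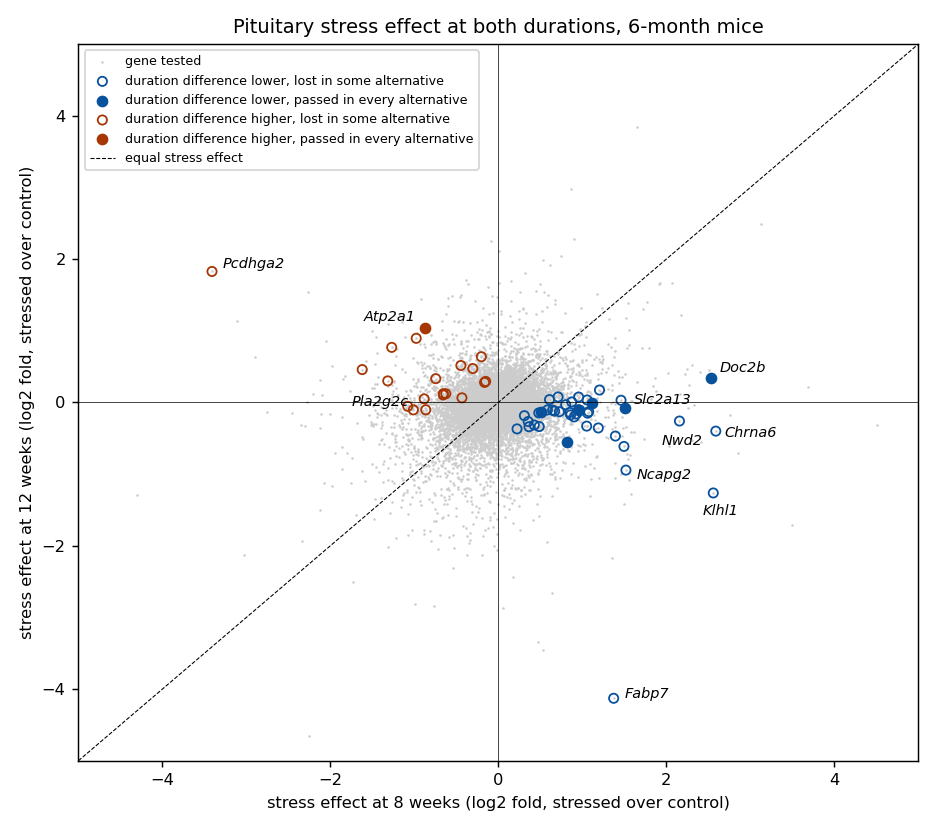
Log2 fold of stressed over control at 8 weeks (horizontal) and 12 weeks (vertical) for 16992 of the 17001 genes tested, with 9 genes beyond the axes. Circles are the 61 genes past the test, filled for the 7 that passed in every alternative; most lie near 0 on the vertical axis, with Doc2b at 2.52 and 0.34 and Atp2a1 at -0.88 and 1.04.

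The number of genes past the test depended on single libraries. It was 27 without the 8-week stressed library 3, 30 without the 8-week stressed 4, 37 without the 8-week control 3, 38 without the 12-week control 4 and 29 without the 12-week stressed 4. It was 108 without the 8-week stressed 1, 117 without the 12-week control 1 and 122 without the 12-week control 2. Without the 12-week controls 3 and 4 it was 51, of which 25 were among the 61, and without the 8-week stressed libraries 3 and 4 it was 10, all among the 61. A fit of the 4 groups alone gave 33, of which 25 were among the 61, and DESeq2 gave 192, which held all 61. All 61 genes kept their direction in the 25 alternatives, 15 passed in the first 24, and 7 passed in all 25: Doc2b, Slc2a13, Rnf144a, Cabp1, Eprs, Ntrk2 and Atp2a1. The naming rule gave 17 of the 61 genes, and the other 44, where named, were chosen after their values were seen.

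**Figure D2:**
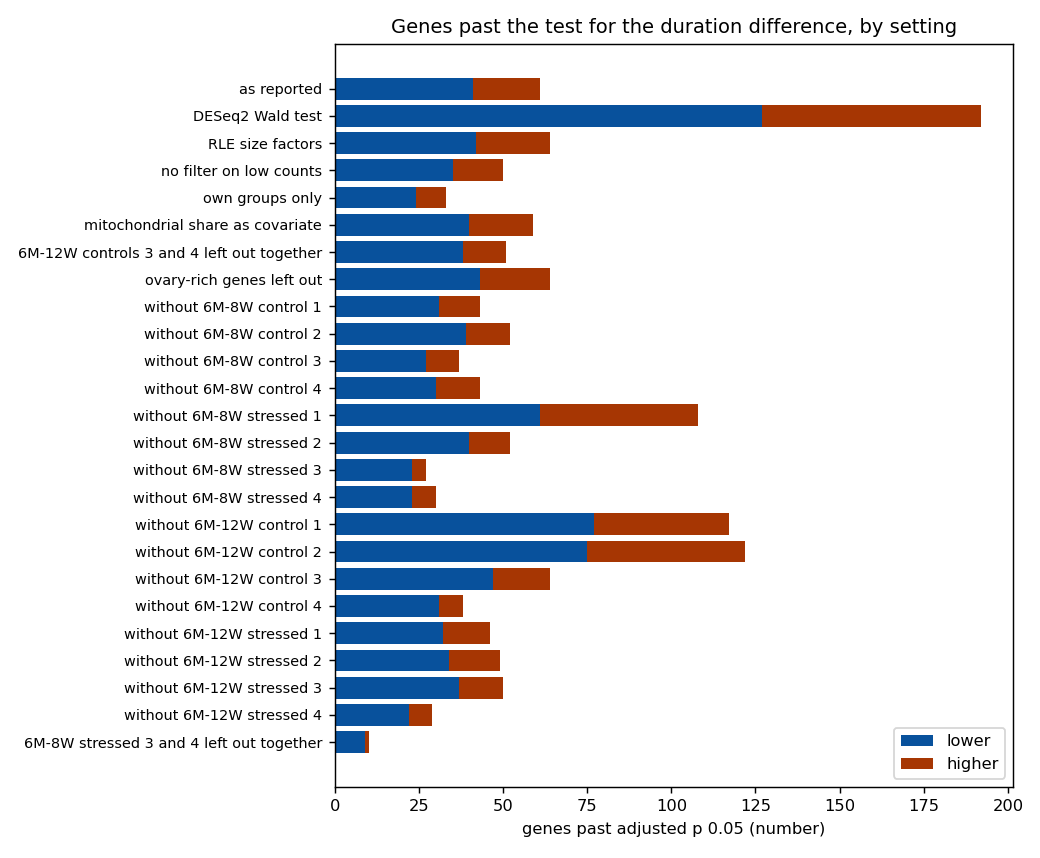
Genes past adjusted p 0.05 for the duration difference, by setting (bars from 0; blue lower, brown higher). The fit with the replicate number as a block, which gave 94 genes, is not drawn. The count as reported is 61, with 10 when the 8-week stressed libraries 3 and 4 are left out and 192 with DESeq2.

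**Figure D3:**
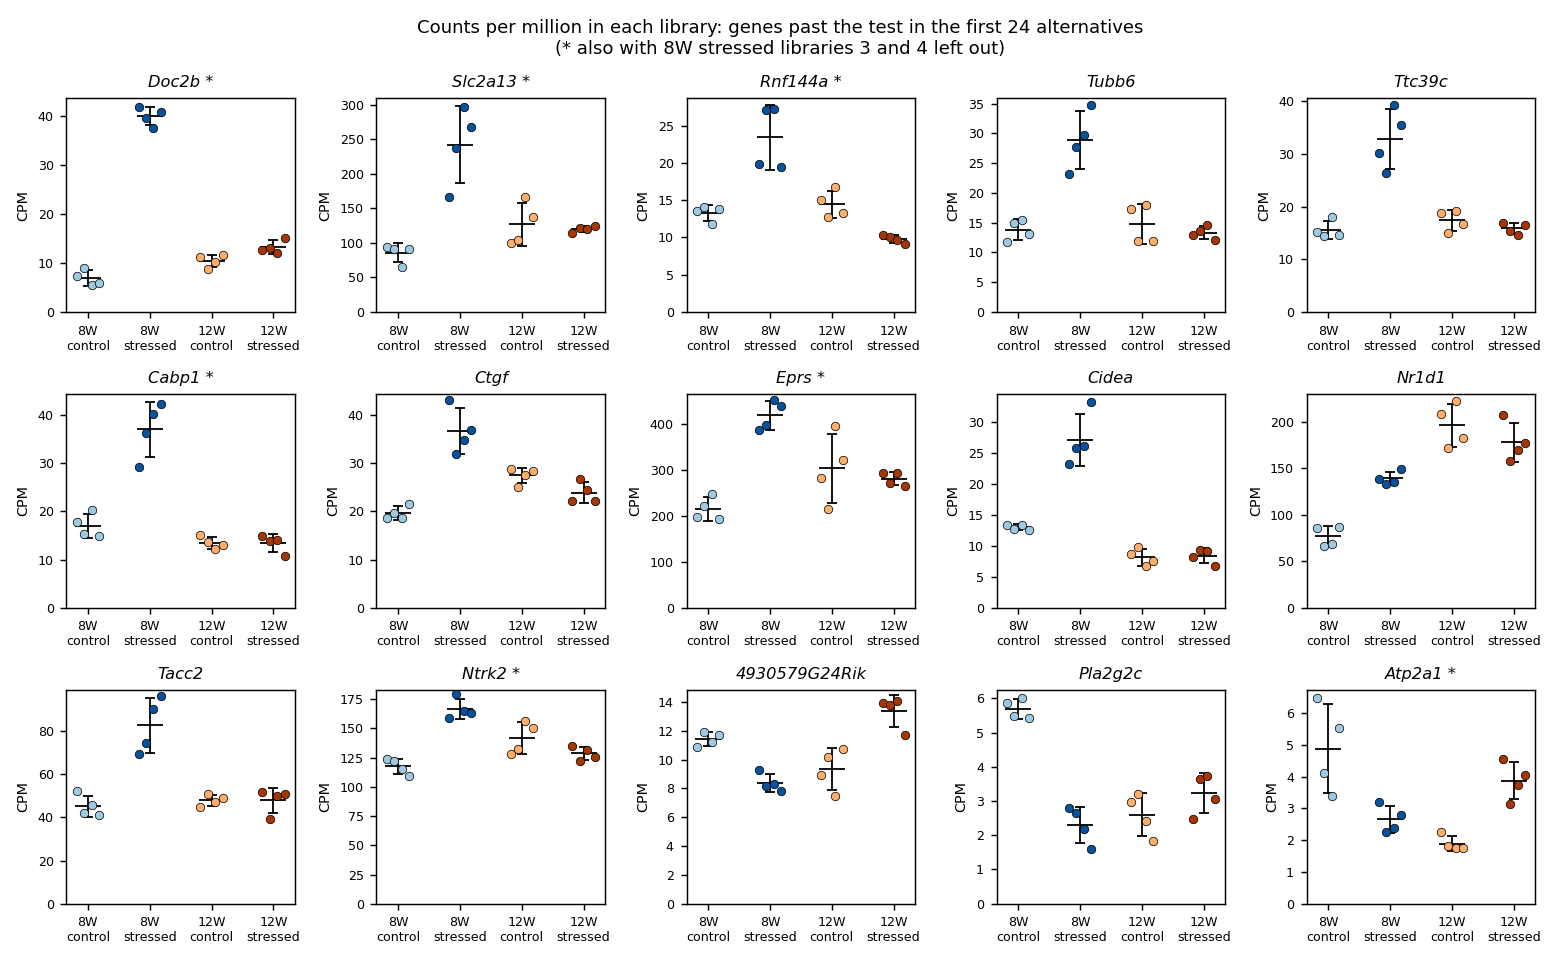
CPM in each library (points) with mean and SD (bars, n = 4) for the 15 genes past the test in the first 24 alternatives; an asterisk marks the 7 that also passed without the 8-week stressed libraries 3 and 4. In Doc2b, Cabp1 and Cidea, among others, the 8-week stressed libraries stand above all 12 others, and in Pla2g2c the 8-week controls do.

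Doc2b (ENSMUSG00000020848, chr11:75768966-75796049 on the minus strand, GRCm38) encodes a calcium sensor that promotes fusion of secretory vesicles with the cell membrane. It had 7.42, 8.95, 5.43 and 5.90 CPM in the 8-week controls 1 to 4 and 41.8, 39.7, 37.4 and 40.8 CPM in the 8-week stressed libraries. At 12 weeks it had 11.1, 8.74, 10.2 and 11.6 CPM in controls and 12.7, 13.1, 12.1 and 15.2 CPM in stressed libraries. The 8-week stressed libraries lay far above every other library, and at 12 weeks the groups did not overlap but were close. Its log2 fold was 2.52 ± 0.22 (SE, adjusted p = 3.8e-08) at 8 weeks and 0.34 ± 0.21 (SE, adjusted p = 0.594) at 12 weeks, a duration difference of -2.18 ± 0.30 (SE, adjusted p = 0.000533). Without the 8-week stressed libraries 3 and 4 the difference was -2.21 (adjusted p = 0.00429).

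Cabp1 (ENSMUSG00000029544, chr5:115168689-115194381 on the minus strand) encodes a calmodulin-like protein that tunes calcium channels in excitable cells. Its CPM were 17.8, 15.4, 20.2 and 14.8 in 8-week controls and 29.3, 36.1, 40.2 and 42.3 in 8-week stressed libraries. At 12 weeks they were 15.03, 13.6, 12.2 and 12.97 in controls and 14.9, 13.95, 14.1 and 10.7 in stressed libraries, groups that overlap. The duration difference was -1.12 ± 0.17 (SE, adjusted p = 0.002), with log2 folds of 1.12 at 8 weeks and 0.00 at 12 weeks (adjusted p = 0.996). Of 24 genes of the secretory granule and exocytosis list, Doc2b was the 1 past the test, and the list's median duration difference was -0.10. At 8 weeks 4 of the 24 were called higher and 1 lower, against 2.30% and 2.40% of all genes tested. Among them the vesicle calcium sensor Syt1 had a log2 fold of 0.66 ± 0.11 (SE, adjusted p = 0.000455) at 8 weeks and a duration difference of -0.59 ± 0.16 (SE, adjusted p = 0.106). Syn1, which encodes a synaptic vesicle protein outside that list, passed at -0.82 ± 0.19 (SE, adjusted p = 0.0448), and in 7 of the first 24 alternatives. The 12-week control 3 was its highest library, at 220.3 CPM against 97.1 to 151.7 CPM in the rest.

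Slc2a13 (ENSMUSG00000036298, chr15:91267696-91573261 on the minus strand) encodes a proton-coupled inositol transporter. Its CPM were 94.3, 91.6, 64.8 and 91.4 in 8-week controls and 167, 237, 297 and 267 in 8-week stressed libraries, with every stressed library above every control. At 12 weeks they were 99.8, 104, 166 and 138 in controls and 114, 122, 121 and 124 in stressed libraries, so controls 3 and 4 were higher than all stressed libraries and controls 1 and 2 lower. The duration difference was -1.58 ± 0.25 (SE, adjusted p = 0.00221), and without controls 3 and 4 it was -1.27 (adjusted p = 0.0215). Slc26a1, which encodes a sulfate transporter, had -2.11 ± 0.43 (SE, adjusted p = 0.0185) at a low level, and its adjusted p rose above 0.05 in 5 of the first 24 alternatives.

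Eprs (ENSMUSG00000026615, chr1:185363044-185428360 on the plus strand) encodes the enzyme that charges tRNA with glutamate and proline. It had 197, 221, 247 and 193 CPM in 8-week controls and 385, 397, 451 and 438 CPM in 8-week stressed libraries. The 12-week values were 281, 214, 394 and 322 CPM in controls and 293, 271, 293 and 265 CPM in stressed libraries, with controls on both sides of the stressed libraries. This gave Eprs a duration difference of -1.07 ± 0.17 (SE, adjusted p = 0.00221). Srxn1, which encodes sulfiredoxin, an enzyme that reactivates oxidised peroxiredoxins, had -1.03 ± 0.21 (SE, adjusted p = 0.0185) and passed in 16 of the first 24 alternatives.

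Ntrk2 (ENSMUSG00000055254, chr13:58806596-59133970 on the plus strand) encodes TrkB, the receptor for brain-derived neurotrophic factor. It had 124, 122, 115 and 109.6 CPM in 8-week controls and 159, 179, 165 and 163 CPM in 8-week stressed libraries. The 12-week values were 128, 132, 156 and 150.3 CPM in controls and 135, 123, 131 and 126 CPM in stressed libraries. Its stress effect at 8 weeks was modest in size, with groups apart, and the 12-week groups overlapped. Ntrk2 had a duration difference of -0.64 ± 0.11 (SE, adjusted p = 0.00687). Ctgf, which encodes a secreted matrix protein also known as a target of YAP, had -1.10 ± 0.20 (SE, adjusted p = 0.00874), and -1.14 (adjusted p = 0.0513) without the 8-week stressed libraries 3 and 4.

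Rnf144a (ENSMUSG00000020642, chr12:26306797-26415256 on the minus strand) encodes a ubiquitin ligase. It had 13.6, 14.1, 11.7 and 13.8 CPM in 8-week controls and 19.9, 27.1, 27.3 and 19.4 CPM in 8-week stressed libraries. At 12 weeks it had 15.03, 12.7, 16.8 and 13.3 CPM in controls and 10.3, 10.1, 9.66 and 9.15 CPM in stressed libraries. The groups were apart at both durations and in opposite directions, though the 12-week log2 fold of -0.56 ± 0.16 (SE, adjusted p = 0.135) did not pass. The duration difference was -1.37 ± 0.22 (SE, adjusted p = 0.00257). Rnf128, which encodes another ubiquitin ligase, had -1.38 ± 0.28 (SE, adjusted p = 0.0187) and -1.07 (adjusted p = 0.132) without the 12-week controls 3 and 4.

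Other genes also passed with a lower stress effect at 12 weeks. Tubb6, a beta tubulin, had -1.21 ± 0.23 (SE, adjusted p = 0.00985), and Tacc2, a protein of centrosomes and microtubules, had -0.87 ± 0.15 (SE, adjusted p = 0.00436). Tacc2 was at 69.3 to 96.1 CPM in 8-week stressed libraries and 39.4 to 52.0 CPM in the other 12. Cidea, which encodes a lipid droplet protein that fuses droplets in fat cells, had -1.02 ± 0.18 (SE, adjusted p = 0.00543). It had 13.3, 12.8, 13.4 and 12.6 CPM in 8-week controls, 23.2, 25.7, 26.1 and 33.1 CPM in 8-week stressed libraries and 6.73 to 9.88 CPM in the 8 libraries of 12 weeks. Ttc39c had -1.20 ± 0.22 (SE, adjusted p = 0.00907). These 4 passed in the first 24 alternatives, and none passed without the 8-week stressed libraries 3 and 4, where their duration differences were -1.03 (adjusted p = 0.123), -0.67 (adjusted p = 0.113), -0.88 (adjusted p = 0.0828) and -0.99 (adjusted p = 0.125).

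Atp2a1 (ENSMUSG00000030730, chr7:126445858-126463108 on the minus strand) encodes SERCA1, the calcium pump of the sarcoplasmic reticulum in fast skeletal muscle, and was the 1 gene called for stress in opposite directions at the 2 durations. Its CPM were 6.48, 4.10, 3.40 and 5.54 in 8-week controls and 3.19, 2.26, 2.39 and 2.80 in 8-week stressed libraries, all stressed values below all controls. At 12 weeks they were 2.25, 1.80, 1.74 and 1.76 in controls and 4.57, 3.15, 3.72 and 4.05 in stressed libraries, all stressed values above all controls. The log2 fold was -0.88 ± 0.17 (SE, adjusted p = 0.00172) at 8 weeks and 1.04 ± 0.18 (SE, adjusted p = 0.00588) at 12 weeks, a duration difference of 1.92 ± 0.25 (SE, adjusted p = 0.000342). Part of this came from controls, where the 12-week level was below the 8-week level by a log2 fold of -1.36 ± 0.18 (SE, adjusted p = 4.47e-06). Of 10 skeletal muscle genes 6 were tested and Atp2a1 was the 1 called. The list, Atp2a1 included, summed to 6.44 to 11.3 CPM in 8-week controls, 4.97 to 7.51 in 8-week stressed, 4.16 to 5.76 in 12-week controls and 6.48 to 8.03 in 12-week stressed libraries. Acta1, skeletal alpha actin, was at a mean of 0.649 ± 0.218, 0.392 ± 0.214, 0.219 ± 0.146 and 0.399 ± 0.418 CPM in the same order of groups (SD, n = 4). The part of muscle RNA in the Atp2a1 result was not tested.

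Pla2g2c (ENSMUSG00000028750, chr4:138724792-138746132 on the plus strand), a gene of the secreted phospholipase A2 family, had 5.87, 5.48, 6.02 and 5.42 CPM in 8-week controls and 1.61 to 3.72 CPM in the other 12 libraries. Its duration difference was 1.62 ± 0.27 (SE, adjusted p = 0.00325), and the 12-week controls were below the 8-week controls by a log2 fold of -1.13 ± 0.19 (SE, adjusted p = 6.33e-05). High values were thus those of 1 group, the 8-week controls. The unnamed transcript 4930579G24Rik had 0.96 ± 0.18 (SE, adjusted p = 0.00874), with 13.9, 13.8, 14.1 and 11.7 CPM in 12-week stressed libraries and 7.47 to 10.8 CPM in 12-week controls. Both lost the call without the 8-week stressed libraries 3 and 4, at 1.37 (adjusted p = 0.0663) and 0.90 (adjusted p = 0.113).

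Promoter sequences of the genes past the test were looked at. Within the lower and the higher genes the 8-week direction was shared, which the choice of genes by the duration difference favours. RefSeq promoter windows of GRCm38.p6, 250 bases before to 50 after a gene's start, were found for 45 of the 61 genes, 33 lower and 12 higher. Hexamers were searched on both strands, and no match of one can be a match of another. The site of the glucocorticoid receptor was taken as TGTTCT, read also as its reverse complement AGAACA. The site shared by many nuclear receptors was taken as AGGTCA, read also as TGACCT. The E-box bound by clock activators was taken as CACGTG, which is its own reverse complement. TGTTCT was in 3 of 33 lower (9.09%) and 1 of 12 higher genes (8.33%), against 19.0% of all 32851 windows. AGGTCA was in 7 of 33 (21.2%) and 3 of 12 (25.0%), against 16.3%. CACGTG was in 0 of 33 and 2 of 12 (16.7%), against 7.15%. A match is a description of letters and not of a bound site.

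The 250 bases before the start are shown for 2 lower genes with a match (Cabp1, Srxn1), for the clock gene Nr1d1 and for the higher gene Atp2a1, with matches in capitals. They lie at chr5:115194382-115194631 (Cabp1, minus strand, TGTTCT 225 bases before the start), chr2:152105274-152105523 (Srxn1, plus strand, AGGTCA 215 bases before), chr11:98775378-98775627 (Nr1d1, minus strand, no match) and chr7:126463074-126463323 (Atp2a1, minus strand, TGACCT 103 bases before).
Cabp1: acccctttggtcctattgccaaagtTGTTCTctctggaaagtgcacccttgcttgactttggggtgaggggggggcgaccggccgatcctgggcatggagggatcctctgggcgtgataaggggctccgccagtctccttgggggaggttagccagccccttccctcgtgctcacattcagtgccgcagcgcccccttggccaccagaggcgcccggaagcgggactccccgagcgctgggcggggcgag
Srxn1: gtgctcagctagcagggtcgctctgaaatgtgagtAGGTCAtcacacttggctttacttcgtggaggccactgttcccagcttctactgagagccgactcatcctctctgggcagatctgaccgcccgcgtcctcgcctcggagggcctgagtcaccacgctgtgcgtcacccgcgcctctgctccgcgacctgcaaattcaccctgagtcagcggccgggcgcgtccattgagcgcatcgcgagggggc
Nr1d1: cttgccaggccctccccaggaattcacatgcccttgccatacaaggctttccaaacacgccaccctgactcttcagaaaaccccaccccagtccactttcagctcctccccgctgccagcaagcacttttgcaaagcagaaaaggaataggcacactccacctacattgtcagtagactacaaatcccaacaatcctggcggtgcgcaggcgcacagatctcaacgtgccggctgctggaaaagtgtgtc
Atp2a1: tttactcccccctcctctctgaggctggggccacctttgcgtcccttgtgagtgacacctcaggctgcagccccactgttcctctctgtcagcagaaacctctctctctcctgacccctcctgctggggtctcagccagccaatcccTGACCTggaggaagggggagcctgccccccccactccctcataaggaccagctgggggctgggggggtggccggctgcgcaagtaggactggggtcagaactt

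Nr1d1 (ENSMUSG00000020889, chr11:98767932-98775333 on the minus strand) was the 1 of 19 clock genes past the test. It had 85.9, 66.96, 68.6 and 87.4 CPM in 8-week controls and 139, 133, 136 and 149 CPM in 8-week stressed libraries. At 12 weeks it had 209, 172, 222 and 183 CPM in controls and 207, 158, 169.8 and 177 CPM in stressed libraries, groups that overlap and lie above all 8-week libraries. The duration difference was -0.99 ± 0.19 (SE, adjusted p = 0.0131), with 1.35 ± 0.14 (SE, adjusted p = 1.11e-07) between the controls of the 2 durations and 0.35 ± 0.13 (SE, adjusted p = 0.0496) between the stressed groups. It passed in the first 24 alternatives and had -0.96 (adjusted p = 0.113) without the 8-week stressed libraries 3 and 4. The hour of collection is not given, and a shift of it between sets cannot be told apart from duration.

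Of the 19 clock genes, 9 were called higher and 2 lower for stress at 8 weeks (2.30% and 2.40% of all genes tested). At 12 weeks 7 were called higher and 2 lower (0.1% and 0.176% of all). Between controls, where 31.99% of all genes tested were called, 7 clock genes were higher and 4 lower at 12 weeks. Among them were Dbp at a log2 fold of 1.12 and Nr1d2 at 0.83. The list's median duration difference was -0.13. The activator Arntl had log2 folds of -0.81 and -1.01 at 8 and 12 weeks, Per2 1.72 and 1.30, Dbp 1.56 and 1.004, and Tef 1.11 and 1.14, all past the test. Their duration differences were -0.20 ± 0.17 (SE, adjusted p = 0.703), -0.42 ± 0.24 (SE, adjusted p = 0.521), -0.55 ± 0.28 (SE, adjusted p = 0.475) and 0.03 ± 0.19 (SE, adjusted p = 0.976), none past it. The paralog Nr1d2 had -0.53 ± 0.14 (SE, adjusted p = 0.0941). The 8-week and 12-week stress comparisons share no library, and 31 genes were called in both, which is 3.88% of the 799 called at 8 weeks and 66.0% of the 47 called at 12 weeks. The direction was the same in 30, the exception being Atp2a1.

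**Figure D4:**
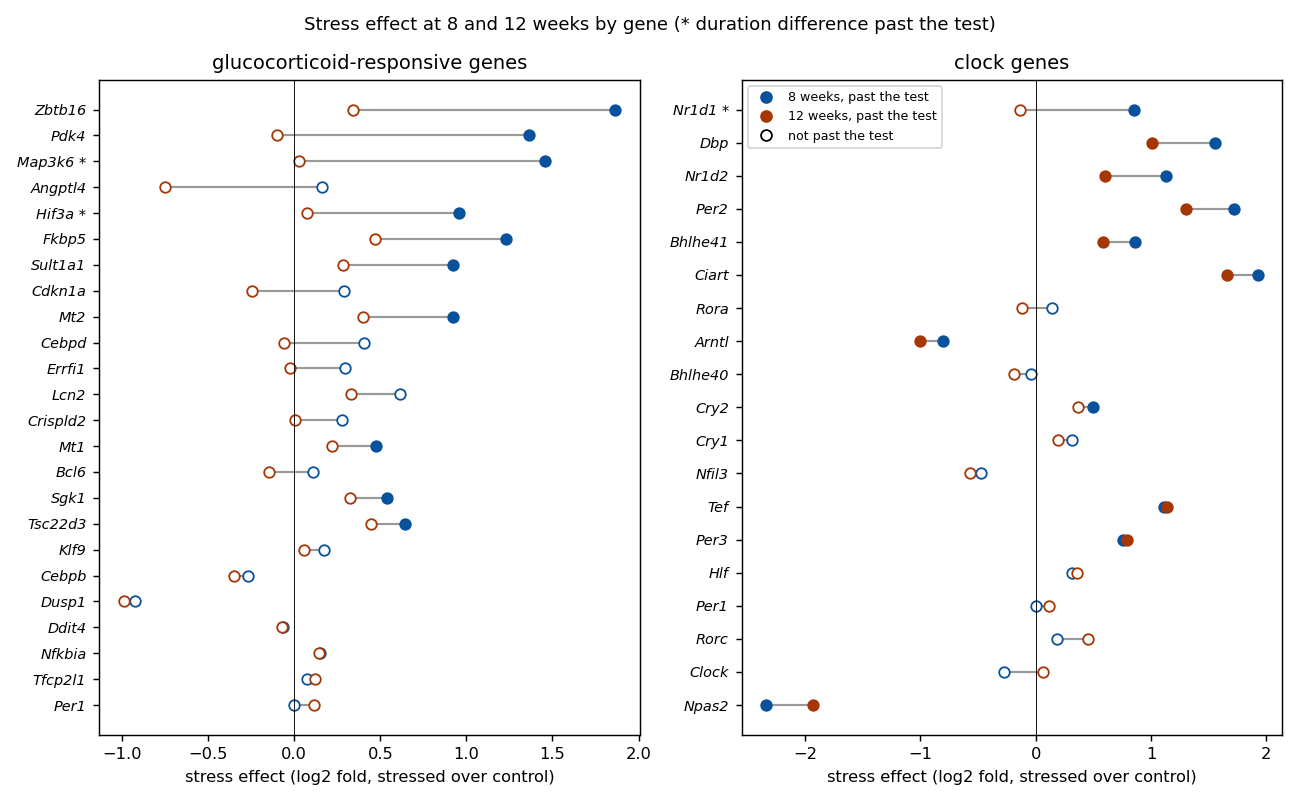
Log2 fold of stressed over control at 8 weeks (blue) and 12 weeks (brown) for 24 glucocorticoid-responsive genes and 19 clock genes, filled where the stress effect passed the test. In the clock panel most pairs lie close together, with Nr1d1 at 0.85 and -0.14; in the other panel 10 genes are filled at 8 weeks and 0 at 12 weeks.

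Glucocorticoid-responsive genes were called at 8 weeks and not at 12 weeks, but the difference itself passed for 2 of 24 (0.359% of all genes tested). Their median duration difference was -0.28, with 22 of 24 below 0, against a median of -0.0033 over all genes. At 8 weeks 10 of the 24 were called higher and 0 lower (median 0.35), against 2.30% and 2.40% of all genes tested. At 12 weeks 0 were called (median 0.07), against 0.276% of all. Map3k6 (ENSMUSG00000028862, chr4:133240818-133252929 on the plus strand), a kinase gene, had 3.43, 3.002, 2.74 and 3.04 CPM in 8-week controls and 7.24, 7.10, 7.79 and 11.4 CPM in 8-week stressed libraries. Its 12-week CPM were 3.97, 2.94, 4.73 and 3.09 in controls and 4.34, 4.36, 2.90 and 3.28 in stressed libraries, and the 8-week stressed libraries were above all others. The duration difference of Map3k6 was -1.43 ± 0.28 (SE, adjusted p = 0.015), and -1.35 (adjusted p = 0.0502) without the 12-week controls 3 and 4. Map3k6 passed in 22 of the first 24 alternatives and lost the call without the 8-week stressed libraries 3 and 4. Hif3a, a hypoxia-inducible factor gene, had -0.88 ± 0.20 (SE, adjusted p = 0.0376) and passed in 10 of the first 24 alternatives.

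The best known members of that list did not pass. Fkbp5, which encodes a chaperone of the glucocorticoid receptor, had 67.7, 75.7, 53.8 and 64.5 CPM in 8-week controls and 139, 149.6, 143 and 182 CPM in 8-week stressed libraries. After 12 weeks it had 48.4, 49.5, 39.5 and 43.1 CPM in controls and 59.2, 58.7, 67.7 and 64.8 CPM in stressed libraries. Stressed libraries were above controls at both durations, and both 12-week groups were lower than their 8-week counterparts. Its log2 folds were 1.23 ± 0.14 (SE, adjusted p = 2.03e-06) and 0.47 ± 0.14 (SE, adjusted p = 0.151), with a duration difference of -0.76 ± 0.19 (SE, adjusted p = 0.0791), past the threshold with DESeq2 alone. Zbtb16 had -1.53 ± 0.40 (SE, adjusted p = 0.0912), Pdk4 -1.46 ± 0.55 (SE, adjusted p = 0.275) and Tsc22d3 -0.20 ± 0.20 (SE, adjusted p = 0.762). Between the stressed groups, 14 of the 24 were called lower and 1 higher at 12 weeks, where 25.7% of all genes tested were called.

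**Figure D5:**
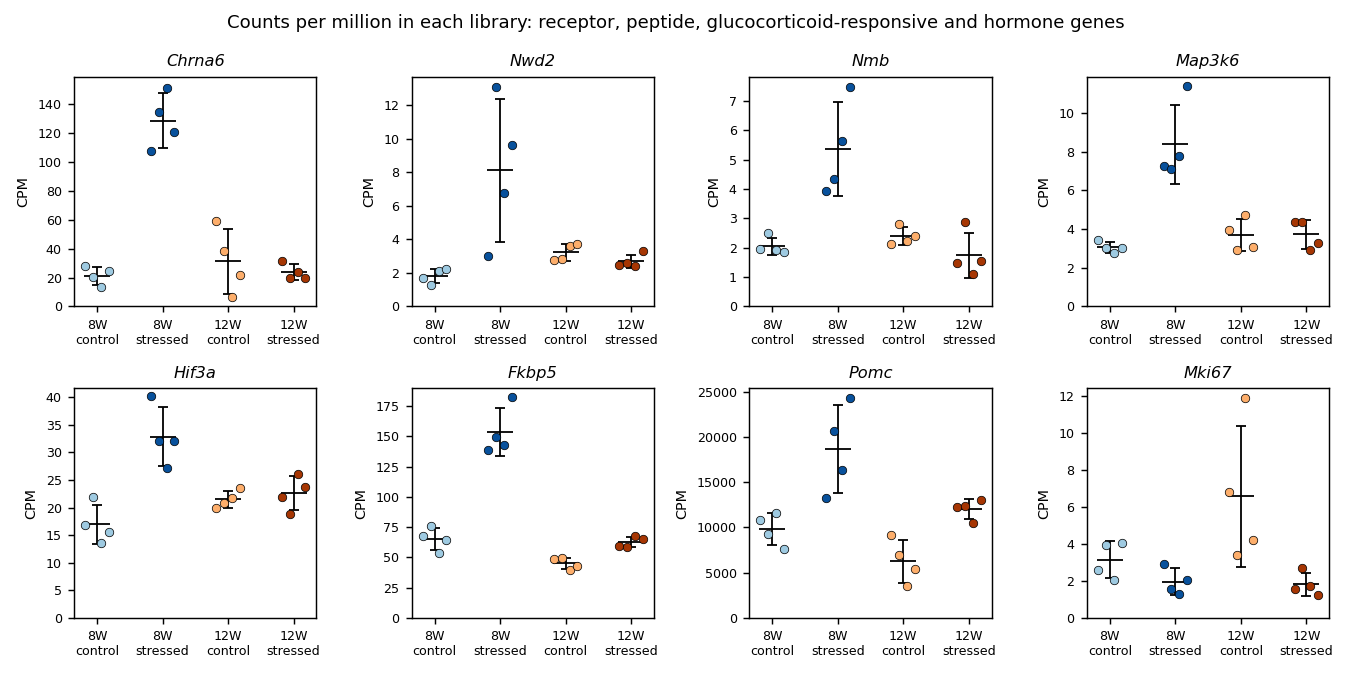
CPM in each library (points) with mean and SD (bars, n = 4) for receptor, peptide, glucocorticoid-responsive, hormone and proliferation genes. The 8-week stressed libraries are above all 12 others for Chrna6, Nmb, Map3k6, Hif3a and Fkbp5, and Pomc is above its controls in every stressed library at both durations.

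Chrna6 (ENSMUSG00000031491, chr8:27403214-27413944 on the minus strand), a nicotinic acetylcholine receptor subunit, had 27.7, 20.4, 13.2 and 24.2 CPM in 8-week controls and 107, 135, 152 and 121 CPM in 8-week stressed libraries. Its 12-week CPM were 59.2, 38.1, 6.56 and 21.5 in controls and 31.2, 19.7, 24.1 and 19.98 in stressed libraries, so every 8-week stressed library was above all 12 others. Its duration difference was -2.99 ± 0.62 (SE, adjusted p = 0.022). The call was lost without the 8-week control 3, the 8-week stressed 3, the 12-week stressed 2 or the 12-week stressed 4, with adjusted p of 0.0507 to 0.0645, and was -2.90 (adjusted p = 0.123) without the 8-week stressed libraries 3 and 4. Of 13 nicotinic subunit genes 9 were tested and Chrna6 was the 1 past the test. Chrnb3, whose product can assemble with that of Chrna6, had -1.39 ± 0.41 (SE, adjusted p = 0.144) and a log2 fold of 1.05 ± 0.29 (SE, adjusted p = 0.0311) at 8 weeks.

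Nmb (ENSMUSG00000025723, chr7:80902227-80905076 on the minus strand), which encodes the bombesin-like peptide neuromedin B, had 1.94, 2.48, 1.91 and 1.85 CPM in 8-week controls and 3.92, 4.34, 5.65 and 7.48 CPM in 8-week stressed libraries. At 12 weeks it had 2.12, 2.80, 2.24 and 2.39 CPM in controls and 1.46, 2.86, 1.10 and 1.54 CPM in stressed libraries. The 8-week stressed libraries were the 4 highest, and the 12-week groups overlapped. The duration difference was -1.86 ± 0.33 (SE, adjusted p = 0.00687), and the fit of the 4 groups alone left it at an adjusted p of 0.0542. Nmb passed in 23 of the first 24 alternatives and lost the call without the 8-week stressed libraries 3 and 4. Neto2, an auxiliary subunit of kainate receptors, had -1.55 ± 0.31 (SE, adjusted p = 0.0185), and -1.06 (adjusted p = 0.179) without the 12-week controls 3 and 4. Nwd2 had -2.42 ± 0.47 (SE, adjusted p = 0.0146), and -2.22 (adjusted p = 0.0765) without those controls. It also lost the call without the 8-week stressed libraries 3 and 4.

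Some calls rested on 1 or a few libraries. Ncapg2, a condensin subunit gene, had 15.1, 15.3, 63.3 and 58.9 CPM in the 8-week stressed libraries and 57.6, 15.4, 20.1 and 14.7 CPM in the 12-week controls, and 12.7 to 15.7 CPM in the other 8 libraries. Its 3 high libraries, the 8-week stressed 3 and 4 and the 12-week control 1, gave a duration difference of -2.46 ± 0.51 (SE, adjusted p = 0.0212), and -1.13 (adjusted p = 0.479) without the first pair. The 8-week stressed 3 and 4 were also those with high heat shock genes, where Hspa1b, an inducible chaperone, had 8.04, 8.49, 63.1 and 73.3 CPM in the 8-week stressed libraries and 3.38 to 28.0 CPM in the other 12. All 12 heat shock genes had duration differences below 0 (median -0.67) and 0 passed. Fabp7, a fatty acid binding protein gene, had 9.76, 0.440, 0.682 and 0.643 CPM in 8-week stressed libraries, with a single high value. In 12-week stressed libraries it had 0.0443, 0.215, 0 and 0 CPM. Its 12-week log2 fold of -4.13 was the lowest of the 41 lower genes. Both durations thus entered its duration difference of -5.50 ± 1.19 (SE, adjusted p = 0.0309), which passed in 16 of the first 24 alternatives. Klhl1 also had 1 high library, with 1.99, 6.66, 2.19 and 1.65 CPM in 8-week stressed libraries, but its call did not rest on that library. Its duration difference was -3.82 ± 0.71 (SE, adjusted p = 0.00985). It passed in all 16 fits with 1 library left out and in 23 of the first 24 alternatives. Pcdhga2 had 5.24 ± 1.17 (SE, adjusted p = 0.0401), with the 8-week control 4 at 264 CPM and the 12-week stressed 1 at 207.8 CPM. It shares exons with the neighbouring gamma protocadherin genes, so its counts are uncertain.

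Genes with a higher stress effect at 12 weeks other than those above were mostly called lower at 8 weeks. Nol4l had 0.93 ± 0.18 (SE, adjusted p = 0.015), Rcor2, a corepressor gene, 1.02 ± 0.23 (SE, adjusted p = 0.0401), and Ehf, an epithelial transcription factor gene, 0.91 ± 0.20 (SE, adjusted p = 0.0415). They passed in 23, 11 and 13 of the first 24 alternatives. Nes, which encodes the intermediate filament nestin, was at 64.3 to 95.0 CPM in 8-week stressed libraries and 119.5 to 164 CPM in the other 12. Its duration difference was 0.76 ± 0.16 (SE, adjusted p = 0.0245) and passed in 14 of the first 24 alternatives. Slc6a15, a transporter of neutral amino acids, differed in kind: it had 13.3, 12.95, 14.003 and 14.9 CPM in 12-week stressed libraries and 5.97 to 10.3 CPM in the other 12. Its log2 fold was 0.64 ± 0.14 (SE, adjusted p = 0.0245) at 12 weeks and -0.20 ± 0.14 (SE, adjusted p = 0.477) at 8 weeks, with a duration difference of 0.84 ± 0.19 (SE, adjusted p = 0.0448) that passed in 9 of the first 24 alternatives.

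The hormone genes and the receptors of the stress axis did not pass. Pomc was at 10790.4, 9272, 11545 and 7597 CPM in 8-week controls and 13218, 20697, 16366 and 24327 CPM in 8-week stressed libraries. After 12 weeks it was at 9116, 6888, 3531 and 5422 CPM in controls and 12283, 12367, 10445 and 13012 CPM in stressed libraries, and stressed libraries were above all controls of their own duration. Its log2 folds were 0.93 ± 0.24 (SE, adjusted p = 0.0197) at 8 weeks and 0.95 ± 0.24 (SE, adjusted p = 0.0897) at 12 weeks, with a duration difference of 0.02 ± 0.34 (SE, adjusted p = 0.994). The corticotrope factor Tbx19 had a duration difference of -0.31 ± 0.19 (SE, adjusted p = 0.573), the CRH receptor Crhr1 0.08 ± 0.20 (SE, adjusted p = 0.931) and the vasopressin receptor Avpr1b 0.45 ± 0.27 (SE, adjusted p = 0.558). The glucocorticoid receptor gene Nr3c1 had 0.03 ± 0.34 (SE, adjusted p = 0.987). A p above the threshold does not show equal effects. The SE of Pomc is 0.34 on the log2 scale, and a difference several times that size could also have missed the threshold. Prl (-0.09), Gh (0.04), Lhb (0.06), Cga (0.24), Tshb (0.19) and Fshb (0.63 ± 0.88 (SE, adjusted p = 0.848)) did not pass either. Of the 20 genes of a core list (hormones, receptors, clock and stress genes), Nr1d1 was the 1 called.

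Of 34 lists of cell type markers and pathways, 5 held a gene past the test and none held more than 2. Interferon response genes had 0 of 22 called and a median duration difference of -0.69, 21 of them below 0. Their summed CPM were 354.5, 463.5, 633.2 and 1166 in the 8-week stressed libraries 1 to 4, the widest range of the 4 groups. Libraries 3 and 4, the highest of these, were also those with high heat shock genes. The 8-week control 4 was at 655.7. Cell cycle genes had 0 of 24 called and a median of -0.60. Among them the proliferation marker Mki67 had -1.15 ± 0.56 (SE, adjusted p = 0.442), and was lower in stressed pituitaries at 12 weeks (-1.85 ± 0.39 (SE, adjusted p = 0.0245)), with CPM of 6.82, 3.40, 11.9 and 4.22 in 12-week controls and 1.55, 2.72, 1.72 and 1.26 in 12-week stressed libraries. Macrophage markers had 0 of 16 called and a median of -0.48, and summed to 242 to 298 CPM in 12-week controls and 196 to 209 in 12-week stressed libraries. In whole pituitaries fewer cells of a type and less RNA per cell cannot be told apart. Corticotrope markers had 0 of 6 called and a median of 0.05.

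Controls and stressed groups each differed between the durations. Between controls, 31.99% of genes tested differed between 12 and 8 weeks (2842 higher and 2597 lower at 12 weeks). Of the 41 lower genes, 19 were called higher and 2 lower at 12 weeks in that contrast. Between stressed groups 25.7% differed (2178 higher and 2192 lower), and of the 41 genes 34 were called lower and 1 higher at 12 weeks. Of the 20 higher genes, 9 were called lower and 1 higher between controls, and 16 were called higher and 0 lower between stressed groups. The 41 lower genes had a median log2 fold between controls of 0.37 and between stressed groups of -0.62. These contrasts make up the duration difference that chose the genes, so nothing is read from the chosen genes' counts or medians. Over all genes, counts fell to 171 for controls and 907 for stressed groups with the mitochondrial share as a covariate, which itself follows duration. Without the 12-week controls 3 and 4 the control count was 1052, and 3231 without control 3 alone. Without the 8-week stressed 3 and 4 the stressed count was 2146.

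In the 2-month pituitaries, which have the same 4 groups of 4 libraries, the duration difference passed for 0 genes (0% of 17001; edgeR, with 710 at an unadjusted p under 0.05, and 5 genes with DESeq2). Over the 41 lower genes the median duration difference at 2 months was -0.03, with 20 above and 21 below 0, and over the 20 higher genes it was 0.02. The test of the 6-month minus the 2-month difference passed for 4 genes (0.0235%), all lower: Nr1d1 (-1.96 ± 0.27 (SE, adjusted p = 0.000884)), Doc2b (-2.59 ± 0.42 (SE, adjusted p = 0.00945)), Syk (-2.28 ± 0.40 (SE, adjusted p = 0.0178)), which encodes a signalling kinase of immune cells, and Tacc2 (-1.15 ± 0.21 (SE, adjusted p = 0.0245)). Nr1d1 went the other way at 2 months, with a duration difference of 0.97 ± 0.19 (SE, adjusted p = 0.176). Doc2b had 0.41 ± 0.30 (SE, adjusted p = 1) there. The count was 33 with DESeq2, 1 without the 6-month 12-week controls 3 and 4, and 9 without the 8-week stressed library 1. For the other genes among the 61 a difference between the ages was not shown.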

How the data were processed

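Chloroform extraction of total RNA and the NEBNext Ultra II RNA kit are named, per the labels' protocols. The deposited pituitary table holds raw read counts for 34745 genes, and beside them the authors' FPKM values, which were used in no test: 100% of 479516 FPKM values lay within 1% of the count divided by library total and a fixed length per gene. For aligner, counting program and strandedness the entry is: not given in the sources used here. Gene positions are those of GRCm38 (99.9% of 34267 identifiers matched by position), and 126 repeated names were kept apart by identifier.

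All 32 pituitary libraries (8 groups) were fitted in 1 model with edgeR 4.0.16 in R 4.3.3: filterByExpr (17001 genes kept), TMM factors, quasi-likelihood F test, Benjamini-Hochberg over all genes, threshold 0.05, for 7 contrasts. CPM use TMM-scaled library sizes, and the SE is the absolute log2 fold over the root of F. The biological coefficient of variation was 0.158. On simulated counts for 17001 genes the duration difference was recovered for 71% of 100 genes changed 2-fold and 96% of 100 changed 4-fold, with 4.02% false among calls. The changed genes were drawn above a minimum level. The simulated libraries held no shift between durations and no library that stood apart, as the real ones do. These rates therefore do not carry over to the calls made here. Depth of 13514270 to 22190587 counts sets the counting error, so genes near 1 CPM rest on few reads.

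Named genes are the 20 core genes, the 8 highest and 8 lowest differences among called genes whose log2 CPM averaged 1 or more (unnamed clones left out), and the 3 members of smallest p of any list with 3 called. The comparison, the 34 lists and the rule were chosen with earlier results of these data known. For 1 gene that the rule gives, the values are not reported here. Alternatives were DESeq2 1.42.0, RLE factors, no filter, own groups, the replicate number as a block, the mitochondrial share as a covariate, 12-week controls 3 and 4 left out, ovary-rich genes left out, each of 16 libraries left out, and, chosen after seeing the data, 8-week stressed libraries 3 and 4 left out.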

Additional observations from a re-analysis of the deposited data

Results flagged for a closer look

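Genes past the interaction test are listed here because their stress effect differed between the durations by that test (log2, 12 weeks minus 8 weeks). Among genes for receptors, ion channels, transporters, secreted proteins and vesicle proteins, the lower ones were Chrna6 -2.99, Doc2b -2.18, Slc26a1 -2.11, Nmb -1.86, Slc2a13 -1.58, Neto2 -1.55, Cabp1 -1.12, Ctgf -1.10, Lin7a -0.86, Syn1 -0.82, Kctd12 -0.79, Entpd1 -0.74, Olfm1 -0.70 and Ntrk2 -0.64. Among genes for enzymes and signalling proteins, the lower ones were Map3k6 -1.43, Rnf128 -1.38, Rnf144a -1.37, Eprs -1.07, Srxn1 -1.03, Erbb2ip -0.63, Map3k5 -0.62, Pde2a -0.59 and Tbc1d1 -0.57. Among genes for cytoskeleton, nucleus and chromosomes, the lower ones were Ncapg2 -2.46, Tubb6 -1.21, Emd -1.09, Myo1d -1.03, Tacc2 -0.87, Tmpo -0.63 and Wasf3 -0.49. Among genes for transcription, the lower ones were Nr1d1 -0.99, Hif3a -0.88 and Gli2 -0.83. The other lower genes were Fabp7 -5.50, Klhl1 -3.82, Nwd2 -2.42, Ttc39c -1.20, Plekhh1 -1.06, Cidea -1.02, Klhl13 -0.75 and 2510009E07Rik -0.69. Among the higher genes were Glod4 0.44, Rps24 0.44, Il17rd 0.50, Fam53b 0.75, Nrep 0.76, Nes 0.76, 1700027J19Rik 0.78, Ttc22 0.78, Slc6a15 0.84, Ehf 0.91, Nol4l 0.93, 4930579G24Rik 0.96, Rcor2 1.02, 5730508B09Rik 1.08, Pla2g2c 1.62, Kank4os 1.87, Atp2a1 1.92, 9130017K11Rik 2.04 and Pcdhga2 5.24. Of the 61 genes, Doc2b, Slc2a13, Rnf144a, Cabp1, Eprs, Ntrk2 and Atp2a1 passed in all 25 alternatives. The values of Pcdhga2 and of the overlapping transcript Kank4os may hold reads of neighbouring genes.

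In 26 of 320 groups of 4 libraries checked for named genes, 1 library lay far from the other 3 (by Dixon's test at the 95% level), and chance marks about 1 in 20 such groups. In the 8-week controls the library apart had these CPM: Nmb 2.48, Slc2a13 64.8, Rnf128 37.5, Cga 2825, Rps24 245, Kank4os 1.77 and Pcdhga2 264. In the 8-week stressed libraries the library apart had these CPM: Fabp7 9.76, Klhl1 6.66, Map3k6 11.4 and Entpd1 21.4. In the 12-week controls the library apart had these CPM: Ncapg2 57.6, Syn1 220.3, Klhl13 43.5, Fshb 270.1, 5730508B09Rik 4.09 and Atp2a1 2.25. In the 12-week stressed libraries the library apart had these CPM: Ncapg2 15.7, Rnf128 28.5, Tacc2 39.4, Pde2a 37.3, Tbc1d1 51.3, Tsc22d3 37.5, Crhr1 20.5, 4930579G24Rik 11.7 and Pcdhga2 207.8. Each is 1 library's value, and its cause was not tested.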

How the results depend on the processing

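The 61 genes kept their direction, and the counts varied. The number of genes past the test for the 6-month duration difference was 192 with DESeq2, 33 in the fit of the 4 groups alone and 10 without the 8-week stressed libraries 3 and 4, and 27 to 122 with each library left out, against 61. The replicate number as a block gave 94 genes (66 lower, 28 higher), 60 of them among the 61. The numbers do not pair the libraries: 1 of 24 same-numbered pairs had a correlation of deviations above 0.1 (range -0.0807 to 0.1175), and 0 libraries correlated best with their own number. For the 8-week stress effect, 799 genes became 186 without those stressed libraries and 436 to 994 with each library left out. For 12 weeks, 47 became 142 with DESeq2 and 7 with own groups, and 22 to 92 with each library left out (92 without control 1, 31 without control 3, 22 without stressed 4). Between controls, 5439 became 2053 with own groups, 171 with the mitochondrial covariate, 1052 without controls 3 and 4, and 3231 to 6251 with each left out. Between stressed groups, 4370 became 907 with that covariate, 2146 without the 8-week stressed 3 and 4, and 3380 to 4831 with each left out. The 2-month count of 0 was 5 with DESeq2 and 0 to 1 with each 6-month library left out. The 6-month minus 2-month count of 4 was 33 with DESeq2, 1 without the 12-week controls 3 and 4, and 3 to 9 with each left out. The cause of these changes was not tested, and fits with libraries left out also hold fewer libraries.

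Some core genes that did not pass changed sign. Without the 12-week controls 3 and 4, Pomc was -0.35, Lhb -0.25, Gh -0.13, Crhr1 -0.18, Tshb -0.18 and Gnrhr 0.24. Without the 8-week stressed 3 and 4, Gnrhr was 0.021 and Crhr1 -0.031. With the mitochondrial covariate Pomc was -0.014, Gh -0.0054 and Lhb -0.0032. With each library left out, Pomc ran from -0.18 to 0.27, Nr3c1 from -0.16 to 0.21, Gh from -0.0485 to 0.13, Lhb from -0.11 to 0.25 and Crhr1 from -0.0648 to 0.19. Depth limits genes near 1 CPM such as Klhl1 and Fabp7. A fit of own groups for the contrast of both ages was not run.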
